A study of Mus musculus with 76 samples.

Results

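PRC2, the Polycomb complex that places the H3K27me3 mark, has a fixed core and exchangeable accessory subunits, and the transcripts of 8 of these subunits are described here across early mouse development. The members were taken by gene symbol: Jarid2 and Aebp2, the partners of the form PRC2.2, and Mtf2, Phf1, Phf19, E130012A19Rik (called Epop below), Lcor and Lcorl, the partners of PRC2.1. All 8 were found among the 48321 genes of the count tables, and all 8 passed the filter on low counts in every comparison. RNA was sequenced from 76 single oocytes, single embryos or single pieces of extraembryonic ectoderm (ExE), a trophoblast tissue, taken at embryonic day 6.5. The labels give 2 genotypes, a maternal knockout of Ezhip (matKO) and wild type (WT), so the embryos of the matKO groups came from mothers without Ezhip, whose product inhibits PRC2. There were 4 matKO and 3 WT oocytes, 12 matKO and 11 WT 2-cell (2C) embryos, 14 matKO and 14 WT blastocysts, and 8 matKO and 10 WT ExE pieces. The strain, the fathers' genotype, the deleted part of Ezhip and the litters are not given in the labels.

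PRC2.1 and PRC2.2 share the catalytic core and differ in what brings the core to chromatin. Jarid2 and Aebp2 help PRC2.2 to recognise the ubiquitin mark that PRC1 places on histone H2A. Mtf2, Phf1 and Phf19 are the Polycomb-like proteins, which bind unmethylated CpG-rich DNA and H3K36-methylated histone tails, and each PRC2.1 complex holds a single one of them. In mouse embryonic stem cells Epop joins PRC2.1 and links it to Elongin B and C, while the PALI proteins, which are made from the Lcor and Lcorl loci, compete with Epop for the same complex. Both loci also make transcripts that do not encode PALI proteins, and counts per gene do not separate these from the PALI transcripts.

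Ezhip, listed as AU022751, checked the genotype labels in the first stages. It stood at 0.288 CPM ± 0.210 (SD, n = 4) in matKO oocytes and 1263 CPM ± 280.3 (SD, n = 3) in WT oocytes, where CPM is the count scaled to a library total of 1000000. In 2C embryos it stood at 3.29 CPM ± 5.51 (SD, n = 12) in matKO and 159.9 CPM ± 92.0 (SD, n = 11) in WT. In blastocysts it ran from 0 to 1.64 CPM in matKO and 0 to 41.5 CPM in WT, and in ExE from 0 to 0.665 CPM in matKO and 0 to 1.00 CPM in WT, so its level does not check the labels of single libraries there. Library totals ran from 1.05 M to 32.0 M counts (M stands for 1000000), and 2C embryos had the lowest median among the stages, 5.08 M counts. Identifiers of libraries begin with a prefix. There are D405T and D707T blastocysts of both genotypes, whereas all 8 matKO ExE libraries carry D707T and all 10 WT ExE libraries carry D1042C, so genotype and prefix cannot be told apart in ExE. The 7 matKO 2C libraries numbered 42 to 48 stood apart, with summed CPM of 8 markers of the 2C stage between 657 and 1759, against 149 to 289.9 in the other 5 matKO and 46.2 to 495 in the 11 WT 2C libraries. Those 7 also had lower totals, from 1.48 M to 4.65 M counts, against 4.19 M to 10.97 M in the other 5 matKO libraries. Because each library is a whole oocyte, embryo or tissue piece, fewer cells of a type and less RNA per cell cannot be told apart in any level given here. Summed CPM of 11 markers of cumulus and granulosa cells ran from 470 to 2765 in matKO and 920 to 2229 in WT oocytes. In 2C embryos the sums ran from 0 to 9.25 in matKO and 0 to 1698 in WT. The part of such cells in the oocyte and 2C levels was not tested.

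The accessory subunits changed mainly with stage. Phf1 was the most abundant of them per length in oocytes and 2C embryos and was almost lost by the blastocyst, Jarid2 was highest in blastocysts, Mtf2 in 2C embryos and blastocysts, and Epop in ExE. Between the genotypes no member passed the test in oocytes, 2C embryos or blastocysts, and 2 of the 8, Mtf2 and Lcorl, were lower in matKO ExE, where 11.9% of all 12160 tested genes were lower. The call of Mtf2 there was lost without 4 matKO pieces high in summed stroma markers (adjusted p 0.0786), which left 4 matKO pieces. Its value was then -0.94, against -0.83 over all pieces, so the call was lost with no smaller difference. Differences were tested with edgeR's quasi-likelihood test, which was fitted on all genes that passed the filter, with Benjamini-Hochberg adjustment, and a gene is called at an adjusted p under 0.05. Fold changes are on the log2 scale after scaling of the libraries by TMM (trimmed mean of M-values), with the standard error (SE) implied by the test, whereas levels in CPM carry no such scaling.

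**Figure D1:**
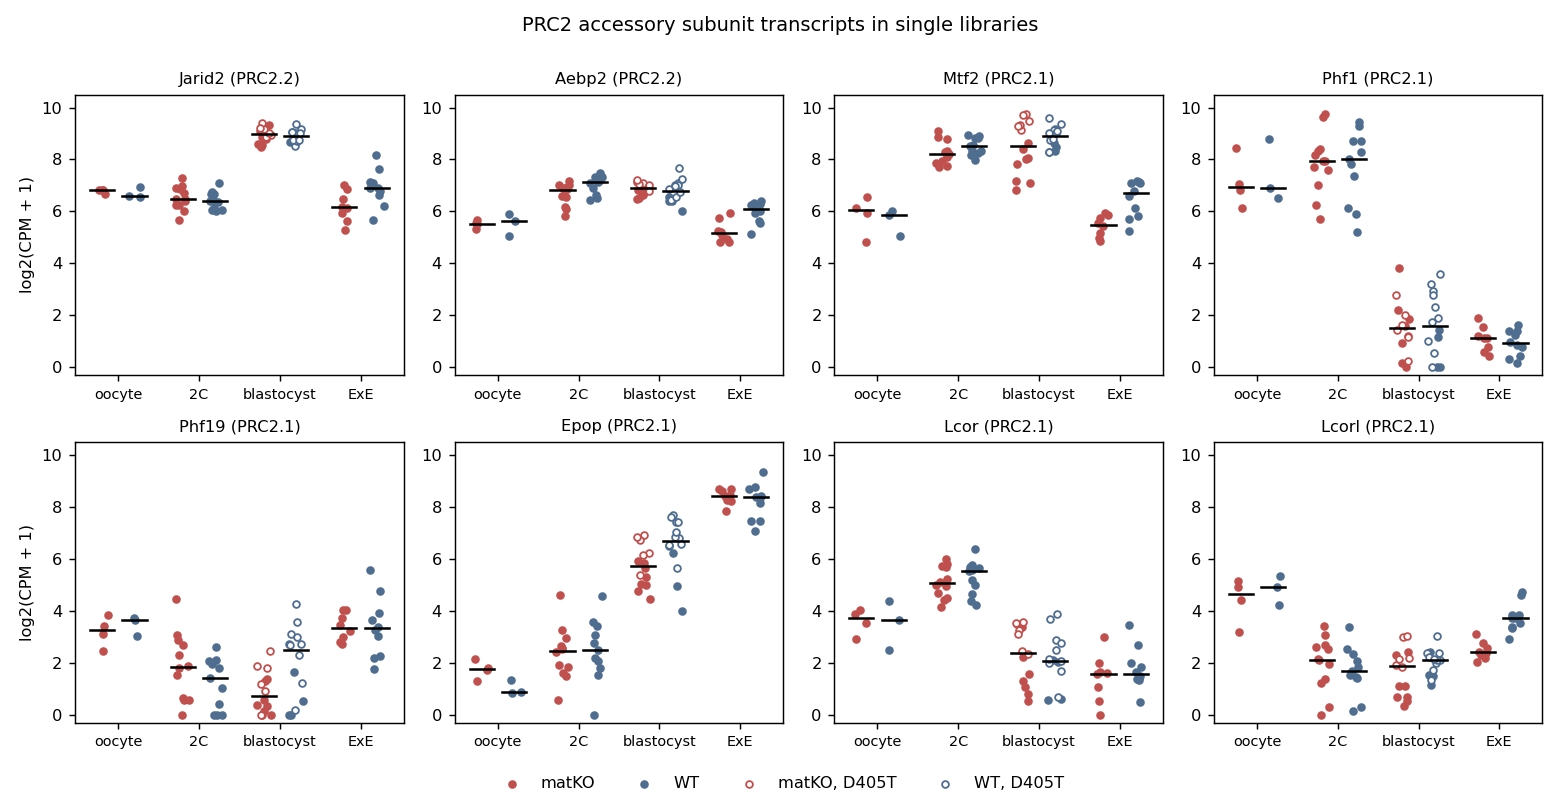
Level of each accessory subunit in every library, as log2(CPM + 1) on the vertical axis, by stage and, within a stage, matKO (red) left of WT (blue). Open points are blastocysts with the prefix D405T and black lines are medians; Phf1 falls between 2C embryos and blastocysts, Epop is highest in ExE, and the genotypes overlap in every panel.

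Of the PRC2.2 partners, Jarid2 (mm10, chr13:44729474-44921643, plus strand), a member of the Jumonji family without demethylase activity, stood at like levels in oocytes and 2C embryos and peaked in blastocysts. Oocytes held 112.2, 101.3, 111.8 and 113.3 CPM in matKO and 121.3, 92.3 and 96.8 CPM in WT. The range in 2C embryos was 49.8 to 157 CPM (median 88.2) in matKO and 63.1 to 136 CPM (median 83.4) in WT. Blastocysts reached 353 to 674 CPM (median 505) in matKO and 369 to 652 CPM (median 482) in WT, and all 28 lay above every 2C embryo of their genotype. ExE held 37.8 to 127 CPM (median 70.4) in matKO and 49.3 to 289 CPM (median 118.8) in WT, below every blastocyst of the same genotype. The step from 2C embryo to blastocyst was 3.11 ± 0.17 (SE; adjusted p 2.93e-22) in matKO and 3.04 ± 0.19 (SE; adjusted p 8.52e-20) in WT. Jarid2 then fell, and the step from blastocyst to ExE was -2.69 ± 0.23 (SE; adjusted p 4.79e-14) in matKO and -1.95 ± 0.22 (SE; adjusted p 2.84e-10) in WT. The step from oocyte to 2C embryo, at -0.24 ± 0.27 (SE; adjusted p 0.474) in matKO and -0.31 ± 0.31 (SE; adjusted p 0.424) in WT, was not called.

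Aebp2 (chr6:140622663-140678472, plus strand), a zinc-finger protein that stimulates PRC2, rose earlier and less. Its levels were 45.4, 44.8, 49.3 and 39.5 CPM in matKO oocytes and 58.5, 48.7 and 32.4 CPM in WT oocytes. In 2C embryos they were 55.5 to 144 CPM (median 114) in matKO and 86.6 to 176 CPM (median 139.5) in WT, so the stages did not overlap in either genotype. The rise was 1.10 ± 0.28 (SE; adjusted p 0.00162) in matKO and 1.33 ± 0.33 (SE; adjusted p 0.00124) in WT. Blastocysts held 88.3 to 146 CPM (median 119.1) in matKO and 63.2 to 203 CPM (median 110.3) in WT, which overlapped the 2C levels. The blastocyst step was called in matKO at 0.76 ± 0.16 (SE; adjusted p 2.60e-05) and not in WT at 0.15 ± 0.18 (SE; adjusted p 0.476). It depended on the scaling: with library totals in place of TMM it was -0.026 (adjusted p 0.886) in matKO and -0.59 (adjusted p 0.00442) in WT. In ExE Aebp2 fell to 27.2 to 59.9 CPM (median 34.6) in matKO and 34.4 to 83.9 CPM (median 67.3) in WT, a change of -1.54 ± 0.17 (SE; adjusted p 5.95e-11) in matKO and -0.78 ± 0.17 (SE; adjusted p 1.43e-04) in WT.

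The 3 Polycomb-like genes are paralogues, and their levels depend on how well reads tell them apart. The reads themselves were not examined, and a stretch of the coding sequences is shown. These are the windows of 90 coding bases with the most bases identical in all 3, read 5′ to 3′ from the GENCODE M21 transcripts of mm10. Capitals mark the 62 bases that all 3 share.
Mtf2, chr5:108088055-108092115, plus strand: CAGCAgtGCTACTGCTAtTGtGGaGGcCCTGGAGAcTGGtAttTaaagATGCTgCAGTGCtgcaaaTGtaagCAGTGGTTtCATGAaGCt
Phf1, chr17:26935363-26935594, plus strand: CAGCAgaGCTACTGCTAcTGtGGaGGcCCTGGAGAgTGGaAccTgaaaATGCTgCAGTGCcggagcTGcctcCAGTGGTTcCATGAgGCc
Phf19, chr2:34904096-34905484, minus strand: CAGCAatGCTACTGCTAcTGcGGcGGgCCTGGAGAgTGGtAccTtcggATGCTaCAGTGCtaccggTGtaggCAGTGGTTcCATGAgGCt
Each window spans 2 exons, and the coordinates run over the intron between them. Over the whole coding sequences, of 1779, 1797 and 1734 bases, the longest run of identical bases was 17 between Mtf2 and Phf1, 14 between Mtf2 and Phf19 and 17 between Phf1 and Phf19.

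Phf1 (chr17:26933127-26937890, plus strand) was a transcript of oocytes and 2C embryos. Oocytes held 112.8, 132.7, 68.9 and 349.7 CPM in matKO and 446, 90.9 and 119.5 CPM in WT, so 1 oocyte of each genotype stood well above the others. 2C embryos ranged from 50.8 to 861 CPM (median 243) in matKO and from 35.6 to 691 CPM (median 261) in WT. In blastocysts it stood at 0 to 13.2 CPM (median 1.85) in matKO and 0 to 10.99 CPM (median 2.05) in WT, with 1 matKO and 3 WT libraries at 0. ExE held 0.365 to 2.68 CPM (median 1.19) in matKO and 0.119 to 2.05 CPM (median 0.897) in WT. Every blastocyst lay below every 2C embryo of its genotype. The change of Phf1 at that step was -6.48 ± 0.73 (SE; adjusted p 3.59e-11) in matKO and -6.51 ± 0.89 (SE; adjusted p 1.02e-08) in WT, the largest fall of a member at any step in the TMM-scaled fits. The oocyte to 2C step was not called, at 0.68 ± 0.64 (SE; adjusted p 0.387) in matKO and 0.13 ± 0.72 (SE; adjusted p 0.901) in WT, nor was the blastocyst to ExE step, at -0.61 ± 0.85 (SE; adjusted p 0.547) in matKO and -0.94 ± 1.05 (SE; adjusted p 0.444) in WT, which edgeR without estimateDisp called (-1.66, adjusted p 0.0471). In the matKO 2C libraries numbered 42 to 48, Phf1 ranged from 242 to 861 CPM, above all 5 others of that group, which held 50.8 to 209 CPM.

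Mtf2 (chr5:108065674-108109004, plus strand), which in mouse embryonic stem cells is the main DNA-binding partner of PRC2.1, rose at the first step and fell at the last. Its levels were 61.1, 69.2, 93.5 and 27.6 CPM in matKO oocytes and 31.9, 63.9 and 57.6 CPM in WT oocytes. The lowest value of each genotype came from the oocyte with the most Phf1. In 2C embryos Mtf2 reached 207 to 548 CPM (median 292) in matKO and 254 to 486 CPM (median 363) in WT, above every oocyte of the same genotype. The rise was 2.24 ± 0.36 (SE; adjusted p 4.38e-06) in matKO and 2.65 ± 0.42 (SE; adjusted p 5.36e-06) in WT. Blastocysts spanned 112 to 862 CPM (median 369) in matKO and 313 to 767 CPM (median 479) in WT. The change from the 2C stage was 0.51 ± 0.20 (SE; adjusted p 0.0204) in matKO, and 0.24 ± 0.22 (SE; adjusted p 0.324) in WT. Neither value was stable. The matKO call was lost with library totals (-0.25, adjusted p 0.246), RLE size factors (0.24, adjusted p 0.227), DESeq2 (0.24, adjusted p 0.252), all 76 libraries in 1 fit (0.39, adjusted p 0.109) and the D707T prefix alone (0.17, adjusted p 0.505). The WT value was called when the prefix was left out of the fit (0.87, adjusted p 6.79e-04). All 2C libraries carry D707T, and under that prefix Mtf2 averaged 235.0 CPM in the 8 matKO and 345.9 CPM in the 4 WT blastocysts, below the 2C means of 321.2 CPM in matKO and 372.0 CPM in WT. In ExE Mtf2 fell to 28.4 to 60.3 CPM (median 43.8) in matKO and 36.8 to 144 CPM (median 103) in WT, below every blastocyst of the same genotype. The change was -2.69 ± 0.26 (SE; adjusted p 1.14e-12) in matKO and -1.72 ± 0.24 (SE; adjusted p 2.74e-08) in WT. Of the exon bases of Mtf2, 6.93% overlap Tmed5 on the opposite strand, and the strand setting of the counting is not given, so some reads of that gene may be counted with it.

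Phf19 (chr2:34893757-34914026, minus strand) was low everywhere. Oocytes held 9.56, 4.55, 7.55 and 13.4 CPM in matKO and 12.3, 11.4 and 7.21 CPM in WT. 2C embryos held 0 to 21.02 CPM (median 2.55) in matKO and 0 to 5.14 CPM (median 1.68) in WT, and blastocysts 0 to 4.50 CPM (median 0.673) in matKO and 0 to 18.3 CPM (median 4.71) in WT. The oocyte to 2C step, at -0.84 ± 1.04 (SE; adjusted p 0.521) in matKO and -2.23 ± 1.18 (SE; adjusted p 0.122) in WT, was not called, and edgeR without estimateDisp called it in WT (-2.58, adjusted p 9.04e-04), as did 1 fit of all 76 libraries (-2.55, adjusted p 0.0309). In ExE it returned to 5.62 to 15.5 CPM (median 9.08) in matKO and 2.39 to 46.8 CPM (median 9.03) in WT. The rise from blastocyst to ExE was 4.59 ± 0.77 (SE; adjusted p 1.61e-06) in matKO, where the stages did not overlap, and 3.46 ± 0.88 (SE; adjusted p 6.58e-04) in WT, where they did. Leaving the prefix out of the fit ended the WT call (1.37, adjusted p 0.0837). At the blastocyst step Phf19 fell in matKO, at -2.53 ± 0.91 (SE; adjusted p 0.0115), and was at -0.012 ± 0.68 (SE; adjusted p 0.989) in WT, and without the prefix term these were -1.24 (adjusted p 0.180) in matKO and 2.04 (adjusted p 0.0428) in WT. Within the WT blastocysts Phf19 averaged 6.59 CPM under D405T (n = 10) and 0.654 CPM under D707T (n = 4).

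Among the 3 Polycomb-like transcripts, compared per kilobase of exon, Phf1 made up 78.9% ± 13.8 (SD, n = 4) in matKO oocytes and 83.4% ± 11.3 (SD, n = 3) in WT oocytes. In 2C embryos its share was 61.6% ± 21.3 (SD, n = 12) in matKO and 56.7% ± 23.9 (SD, n = 11) in WT, and most of the rest was Mtf2. The matKO 2C libraries numbered 42 to 48 had a Phf1 share of 67.3% to 89.96%, and the other 5 one of 17.8% to 51.2%. Over the WT 2C embryos it ran from 14.8% to 84.0%. In blastocysts Mtf2 made up 97.8% ± 2.11 (SD, n = 14) in matKO and 97.5% ± 2.17 (SD, n = 14) in WT. ExE kept Mtf2 in front, at 74.96% ± 6.60 (SD, n = 8) in matKO and 83.3% ± 11.7 (SD, n = 10) in WT, with Phf19 at 19.7% ± 6.77 in matKO and 14.5% ± 11.6 in WT (SD, same libraries).

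Epop (chr11:97627389-97629702, minus strand) had a higher mean CPM at each stage than at the one before in both genotypes, and the last 2 steps were called. Oocytes held 1.49, 2.47, 3.42 and 2.34 CPM in matKO and 1.52, 0.783 and 0.811 CPM in WT, and 2C embryos 0.479 to 23.4 CPM (median 4.54) in matKO and 0 to 22.6 CPM (median 4.57) in WT. Blastocysts reached 20.7 to 121 CPM (median 52.6) in matKO and 14.9 to 206 CPM (median 103) in WT. ExE reached 226 to 415 CPM (median 346) in matKO and 136 to 646 CPM (median 331) in WT. In both genotypes 13 of 14 blastocysts lay above every 2C embryo, and all 8 matKO and 7 of 10 WT ExE pieces lay above every blastocyst. The blastocyst step was 3.62 ± 0.44 (SE; adjusted p 3.67e-10) in matKO and 3.77 ± 0.48 (SE; adjusted p 2.23e-09) in WT. The ExE step was 3.09 ± 0.26 (SE; adjusted p 3.68e-14) in matKO and 2.19 ± 0.29 (SE; adjusted p 6.38e-09) in WT. The oocyte to 2C step, at 0.83 ± 0.91 (SE; adjusted p 0.471) in matKO and 2.16 ± 1.12 (SE; adjusted p 0.115) in WT, was not called, and the WT value was called by edgeR without estimateDisp (2.21, adjusted p 0.0146) and with all 76 libraries in 1 fit (2.56, adjusted p 0.00124).

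Lcor and Lcorl, the loci of the PALI proteins, were low and moved apart at the first step. Lcor (chr19:41482645-41562246, plus strand) stood at 13.9, 10.6, 15.2 and 6.49 CPM in matKO oocytes and 4.65, 11.5 and 19.7 CPM in WT oocytes. It rose in 2C embryos to 16.7 to 61.996 CPM (median 32.3) in matKO and 17.5 to 81.7 CPM (median 45.7) in WT, a step of 1.52 ± 0.48 (SE; adjusted p 0.00971) in matKO and 1.64 ± 0.56 (SE; adjusted p 0.0172) in WT. The WT call was lost without WT oocyte 1 (adjusted p 0.116) or WT oocyte 2 (adjusted p 0.0605), and over all alternatives that left out an oocyte its adjusted p ran from 0.0116 to 0.116. With all 76 libraries in 1 fit neither genotype was called (1.48, adjusted p 0.0632 in matKO and 1.60, adjusted p 0.0860 in WT). In blastocysts Lcor was below every 2C embryo, at 0.438 to 10.8 CPM (median 4.27) in matKO and 0.462 to 13.8 CPM (median 3.23) in WT, a change of -2.60 ± 0.46 (SE; adjusted p 1.78e-06) in matKO and -3.57 ± 0.55 (SE; adjusted p 1.87e-07) in WT. ExE held 0 to 6.94 CPM in matKO and 0.406 to 9.98 CPM in WT, and that step was not called (adjusted p 0.255 in matKO and 0.753 in WT).

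Lcorl (chr5:45697181-45857615, minus strand) was an oocyte transcript of 20.3, 29.2, 34.8 and 8.19 CPM in matKO and 17.9, 39.1 and 29.5 CPM in WT. It fell in 2C embryos to 0 to 9.67 CPM (median 3.35) in matKO and 0.106 to 9.49 CPM (median 2.17) in WT, a change of -2.60 ± 0.82 (SE; adjusted p 0.00940) in matKO and -3.43 ± 0.83 (SE; adjusted p 0.00112) in WT. Only 1 of the 12 matKO embryos and none of the 11 WT embryos reached an oocyte level of its genotype. Blastocysts stayed in that range, at 0.246 to 7.07 CPM in matKO and 1.23 to 7.12 CPM in WT. ExE held 3.07 to 7.51 CPM (median 4.30) in matKO and 6.64 to 25.5 CPM (median 12.2) in WT, a rise of 1.29 ± 0.41 (SE; adjusted p 0.00615) in matKO and 2.58 ± 0.44 (SE; adjusted p 1.64e-06) in WT. The matKO call was lost without the prefix term (0.82, adjusted p 0.0697). Of its exon bases, 5.01% overlap Ncapg on the opposite strand. The highest group mean of Ncapg was 260 CPM, above any level of Lcorl. With the strand setting not given, some Ncapg reads may be counted with Lcorl, and their part in its changes was not tested.

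**Figure D2:**
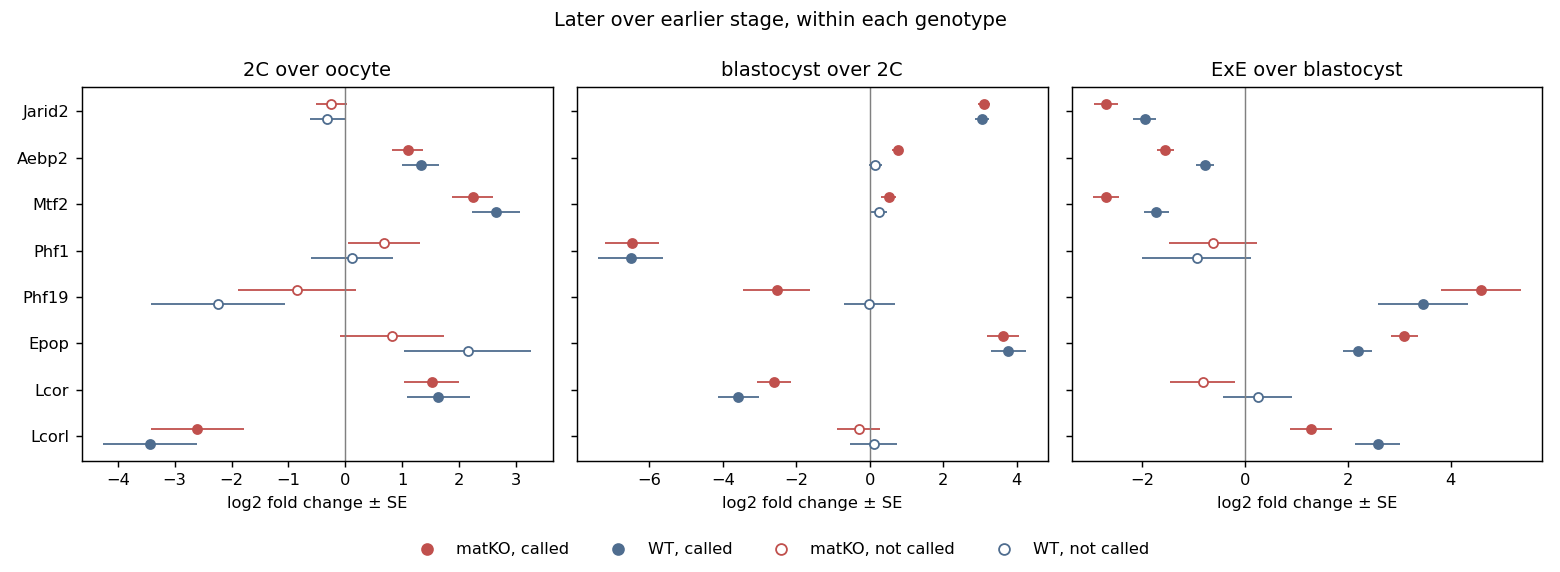
Log2 fold change of the later over the earlier stage on the horizontal axis, with its SE, for each accessory subunit in matKO (red, upper) and WT (blue, lower). Filled points passed the test; at the blastocyst step Jarid2 and Epop lie near 3 to 4 and Phf1 near -6.5, and at the ExE step Jarid2, Aebp2 and Mtf2 lie below 0 while Phf19, Epop and Lcorl lie above it.

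These counts have to be read against the many genes that moved at each step. From oocyte to 2C embryo 3 members rose (Aebp2, Mtf2 and Lcor) and 1 fell (Lcorl) in each genotype, where 24.9% of all 17486 tested genes rose and 23.4% fell in matKO, and 23% rose and 20.8% fell in WT. From 2C embryo to blastocyst 4 members rose and 3 fell in matKO, against 33.7% and 40.8% of 14956 genes, and 2 rose and 2 fell in WT, against 29.8% and 37.1%. From blastocyst to ExE 3 members rose and 3 fell in each genotype, where 35.9% of 15022 genes rose and 26.8% fell in matKO, and 34.9% rose and 29.4% fell in WT. The median over all genes at the blastocyst step was -0.29 in matKO and -0.27 in WT with TMM, and -1.07 in matKO and -1.01 in WT with library totals, which called 3609 genes higher and 7670 lower in matKO, against 5046 and 6108 with TMM, and 2997 higher and 7155 lower in WT, against 4462 and 5543 with TMM. At this step the changes of Aebp2 in both genotypes and of Mtf2 in matKO turned sign with library totals, while those of Jarid2, Epop, Phf1 and Lcor kept their direction and their call under every scaling. Lcorl was called in neither genotype in the main fit, and Phf19 only in matKO. The ExE libraries are a dissected tissue and the blastocysts whole embryos, so stage and tissue change together at the last step. In WT the prefix changes with them, because every WT ExE library carries D1042C and no blastocyst does. The prefix term of the fit does not remove this, so stage and prefix cannot be told apart in the WT step to ExE.

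**Figure D3:**
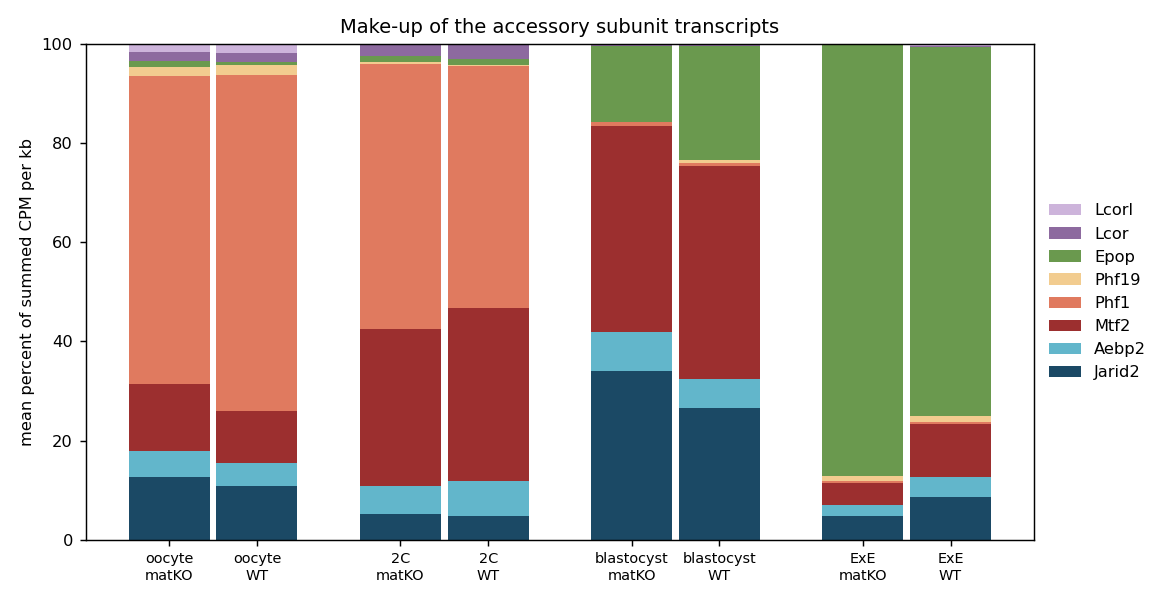
Mean percent of the summed CPM per kilobase of exon that each accessory subunit takes, stacked to 100% on the vertical axis, for each stage with matKO left of WT. Phf1 takes most of the bar in oocytes, Mtf2 and Jarid2 share most of it in blastocysts, and Epop takes 86.7% in matKO and 74.3% in WT ExE.

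Set per kilobase of exon, the PRC2.1 partners outweighed the PRC2.2 partners in the mean of each of the 8 groups. Jarid2 and Aebp2 together made up 17.8% ± 6.38 (SD, n = 4) of the 8 in matKO oocytes and 15.5% ± 6.21 (SD, n = 3) in WT oocytes, and 10.8% ± 4.07 (SD, n = 12) in matKO and 11.9% ± 5.52 (SD, n = 11) in WT 2C embryos. The share peaked in blastocysts, at 41.8% ± 11.8 (SD, n = 14) in matKO and 32.4% ± 6.80 (SD, n = 14) in WT. ExE had 7.02% ± 2.24 (SD, n = 8) in matKO and 12.6% ± 7.68 (SD, n = 10) in WT. The low ExE share rested on Epop: against the Polycomb-like genes alone, the PRC2.2 partners made up 53.1% in matKO and 49.997% in WT ExE, and 49.6% in matKO and 42.3% in WT blastocysts. Exon lengths are those of all annotated exons of a gene together, from 2.31 kb for Epop to 18.9 kb for Lcorl, so a gene that uses few of its exons is understated. In blastocysts the share moved with the prefix. It was 30.3% ± 4.38 (SD, n = 6) in matKO and 29.6% ± 5.71 (SD, n = 10) in WT under D405T, and 50.4% ± 6.83 (SD, n = 8) in matKO and 39.3% ± 3.79 (SD, n = 4) in WT under D707T.

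**Figure D4:**
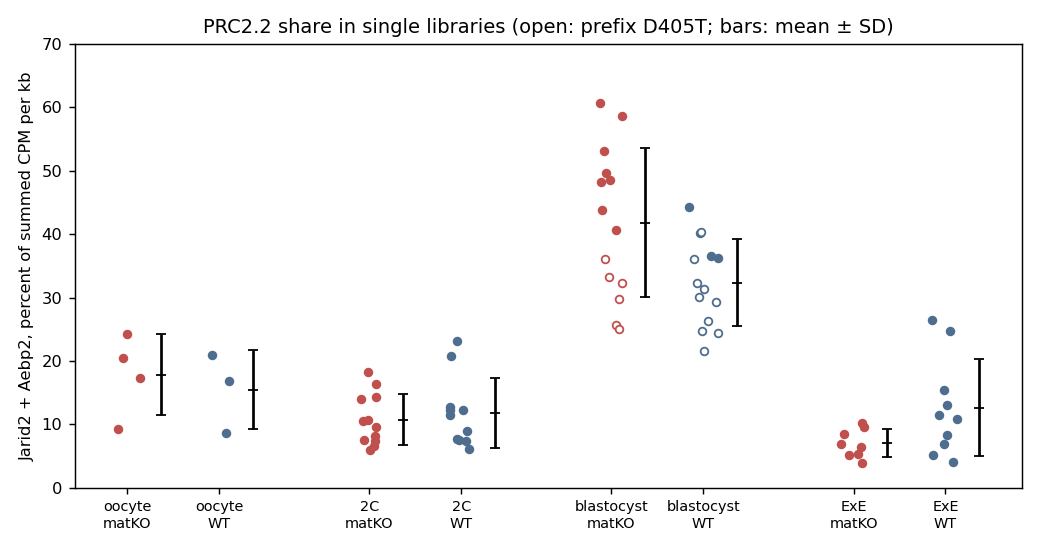
Jarid2 and Aebp2 as a percent of the summed CPM per kilobase of the 8 accessory subunits (vertical axis), with 1 point per library, matKO (red) left of WT (blue) in each stage. Open points carry the prefix D405T and bars give the mean ± SD; all 28 blastocysts lie between 21.5% and 60.6%, and the highest ExE piece is a WT piece at 26.5%.

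The question of the genotype comparison is whether embryos without maternal Ezhip carry other levels of the partners of the complex that Ezhip inhibits. In oocytes 0 of the 8 members were called, and 0 had an unadjusted p under 0.05, where edgeR called 0.0202% of 14838 genes and DESeq2 also called 0 members. Their log2 changes ran from -0.38 for Phf1 to 1.19 ± 0.71 (SE; adjusted p 0.833) for Epop. For Jarid2 the 95% interval of the difference was -0.27 to 0.40, and for Aebp2 -0.54 to 0.38. In 2C embryos 0 of 8 were called, again with 0 at an unadjusted p under 0.05 and 0 by DESeq2, against 0.502% of 12140 genes. The intervals there were -0.23 to 0.55 for Jarid2, -0.66 to 0.07 for Aebp2 and -0.55 to 0.26 for Mtf2, and -0.66 to 1.06 for Phf1. Without the 7 matKO libraries numbered 42 to 48, Mtf2 was at 0.37 ± 0.23 (SE; adjusted p 0.520) and Phf1 at -0.78 ± 0.51 (SE; adjusted p 0.533), of opposite sign to the values over all 2C libraries, -0.15 ± 0.21 (SE; adjusted p 0.776) and 0.20 ± 0.44 (SE; adjusted p 0.867).

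In blastocysts no member was called either, where 6.9% of 11738 genes were, and DESeq2 called 0, although 3 had an unadjusted p under 0.05. Aebp2 was at 0.29 ± 0.13 (SE; adjusted p 0.174), Jarid2 at 0.24 ± 0.11 (SE; adjusted p 0.200) and Epop at -0.46 ± 0.22 (SE; adjusted p 0.241), with the prefix as a term. For Mtf2 the prefixes gave opposite signs. Under D405T it stood at 564 to 862 CPM in the 6 matKO and 315 to 767 CPM in the 10 WT blastocysts, and was called at 0.51 ± 0.14 (SE; adjusted p 0.0415) in a fit of that prefix alone. Under D707T it stood at 112 to 399 CPM in the 8 matKO and 313 to 395 CPM in the 4 WT blastocysts, at -0.37 ± 0.28 (SE; adjusted p 0.609). Over both it was 0.12 ± 0.17 (SE; adjusted p 0.767), and the difference between the prefixes was not tested. Summed markers of trophectoderm, 6 genes, ran from 650 to 4824 CPM in matKO and from 1884 to 7299 CPM in WT blastocysts, and those of the inner cell mass, 4 genes, from 408 to 958 CPM in matKO and from 248 to 689 CPM in WT, and their part in these values was not tested. Epop was lower under both, at -0.54 ± 0.26 (SE; adjusted p 0.238) within D405T and -0.37 ± 0.38 (SE; adjusted p 0.726) within D707T. Phf19, at -1.16 ± 0.86 (SE; adjusted p 0.492), averaged 1.959 CPM in matKO and 6.59 CPM in WT under D405T, and 0.527 CPM in matKO and 0.654 CPM in WT under D707T. Of the alternatives run, edgeR's fit without estimateDisp called it (-1.60, adjusted p 0.0211).

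**Figure D5:**
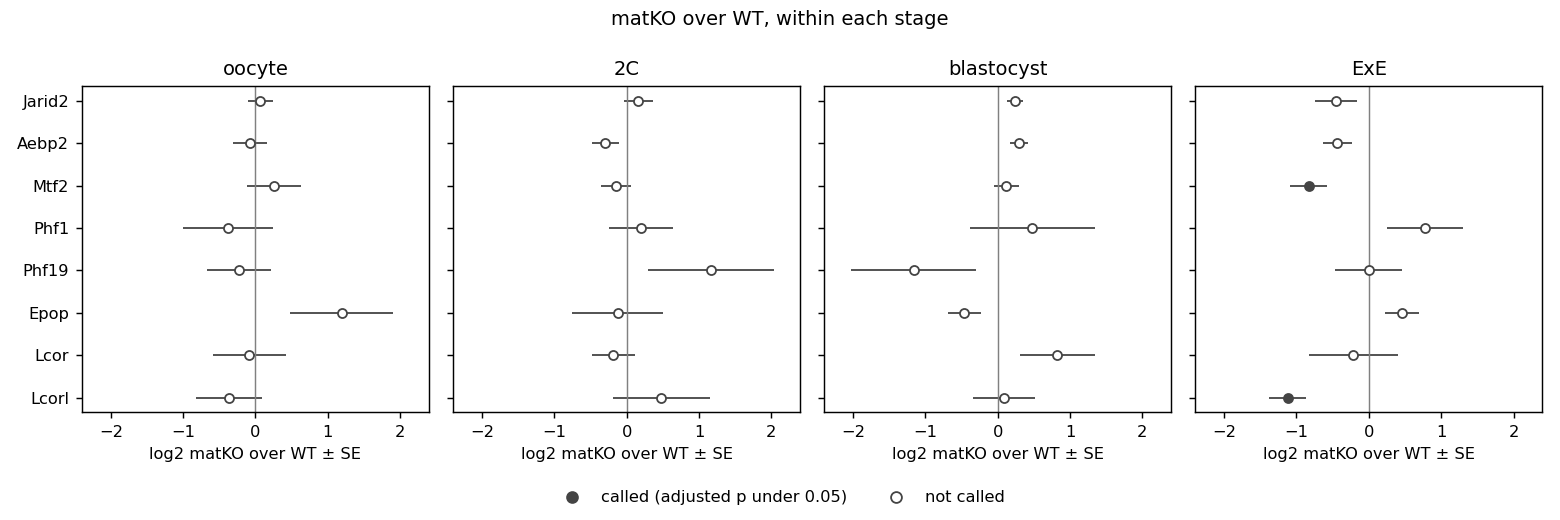
Log2 fold change of matKO over WT (horizontal axis) with its SE for each accessory subunit within each stage. Filled points passed the test, which only Mtf2 at -0.83 and Lcorl at -1.12 did, both in ExE.

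In ExE 2 of the 8 members were lower in matKO and 0 higher, where 27.5% of 12160 genes were called and 11.9% were lower. Lcorl had levels of 3.07 to 7.51 CPM in matKO and 6.64 to 25.5 CPM in WT, and 7 of 8 matKO pieces lay below every WT piece. It fell by 1.12 ± 0.26 (SE; adjusted p 0.00297). Mtf2, at 28.4 to 60.3 CPM in matKO and 36.8 to 144 CPM in WT, fell by 0.83 ± 0.26 (SE; adjusted p 0.0198), with 8 of 8 matKO pieces under the WT mean and 3 of 8 below every WT piece. Aebp2 at -0.43 ± 0.20 (SE; adjusted p 0.104), Jarid2 at -0.45 ± 0.29 (SE; adjusted p 0.255) and Epop at 0.46 ± 0.23 (SE; adjusted p 0.142) were not called. With library totals, which put the median of all genes at -0.42 in place of -0.07 and called 1105 genes higher and 3401 lower in place of 1894 and 1452, Aebp2 (-0.75, adjusted p 0.0124) and Jarid2 (-0.76, adjusted p 0.0446) were called as well.

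Markers of other tissues had these levels in the ExE groups. The summed CPM of 12 markers of decidua and uterine stroma ran from 38.7 to 751 in matKO and from 10.9 to 157 in WT, with none of the 12 at 0 in either group, and 4 of the 8 matKO pieces lay above 2 times the highest WT piece. The sum rested largely on Prl8a2, which averaged 196 CPM in matKO and 30.7 CPM in WT. The mean sums were 311 CPM in matKO and 53.9 CPM in WT. Dcn, another of the 12, had a median of 0.161 CPM in matKO and 0 CPM in WT. Markers of the ectoplacental cone and giant cells summed to between 44.5 and 2022 CPM in matKO and between 41.3 and 355 CPM in WT. Those of epiblast and mesoderm summed to between 0.0750 and 91.3 CPM in matKO and between 10.1 and 596 CPM in WT. Markers of red blood cells, 5 genes, summed to between 1.70 and 354 CPM in matKO and 0.103 and 38.6 CPM in WT, and those of the inner cell mass, 4 genes, to between 62.9 and 552 CPM in matKO and 45.1 and 186 CPM in WT. Nanog, of this last list, went the other way, averaging 8.23 CPM in matKO and 17.3 CPM in WT. The higher matKO sum of that list therefore came from its other genes. Markers of macrophages, 5 genes, summed to between 3.23 and 12.7 CPM in matKO and 2.13 and 6.26 CPM in WT, and those of visceral endoderm to between 637 and 6523 CPM in matKO and 806 and 5139 CPM in WT. The markers of ExE itself summed to between 179 and 821 CPM in matKO and 371 and 1084 CPM in WT. Without the 4 matKO pieces high in stroma markers, Lcorl was at -1.25 ± 0.34 (SE; adjusted p 0.0201) and Mtf2 at -0.94 ± 0.36 (SE; adjusted p 0.0786), so the value of Mtf2 was as large and its call was lost. Jarid2 was then at -0.16 ± 0.36 (SE; adjusted p 0.775), and it averaged 56.8 CPM in the 4 stroma-high pieces and 97.3 CPM in the other 4 matKO pieces. No gene of these lists was at 0 in every library of a group. The part of the other markers in these results was not tested.

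Tests of whether a step differed between the genotypes gave 0 called members from oocyte to 2C embryo, where 0.0286% of 17486 genes were called, and 0 from 2C embryo to blastocyst, where 4.33% of 14956 were. At the first of these 0 and at the second 2 had an unadjusted p under 0.05, Aebp2 (0.61 ± 0.21, SE; adjusted p 0.0885) and Phf19 (-2.52 ± 1.23, SE; adjusted p 0.248), and DESeq2 called 0 at both. From blastocyst to ExE the fall of 3 members was deeper in matKO, where 17.9% of 15022 genes were called. The matKO minus WT difference was -0.98 ± 0.30 (SE; adjusted p 0.0165) for Mtf2, -0.77 ± 0.21 (SE; adjusted p 0.00808) for Aebp2 and -0.75 ± 0.27 (SE; adjusted p 0.0496) for Jarid2. Epop, at 0.91 ± 0.34 (SE; adjusted p 0.0520), and Lcorl, at -1.29 ± 0.53 (SE; adjusted p 0.0817), did not pass. Epop was called without the prefix term (1.19, adjusted p 0.0308) and by edgeR without estimateDisp (0.91, adjusted p 0.0368), and Lcorl by DESeq2 (-1.32, adjusted p 0.0187), with library totals (-1.50, adjusted p 0.0389) and by edgeR without estimateDisp (-1.39, adjusted p 0.00866). Of the 3 calls that of Jarid2, near the threshold, was lost with DESeq2 (adjusted p 0.0586), RLE size factors (adjusted p 0.0622), no count filter (adjusted p 0.0638), no prefix term (adjusted p 0.0536), all 76 libraries in 1 fit (adjusted p 0.0576) and without the 4 stroma-high pieces (-0.46, adjusted p 0.377). That of Mtf2 was lost without the prefix term (-0.86, adjusted p 0.101). The ExE prefixes enter this difference in full. The test of a sex difference in the genotype effect called 0 of 8 members in 2C embryos, blastocysts and ExE, with 0 at an unadjusted p under 0.05 and 0 by DESeq2, against 0%, 0.00852% and 0% of all genes.

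The core of PRC2 and its relatives also changed with stage. Of the 7 genes of the list of PRC2 core subunits and Ezhip, Suz12, the scaffold to which the accessory subunits bind, rose from oocyte to 2C embryo at 2.204 in matKO (adjusted p 1.40e-07) and 2.34 in WT (adjusted p 7.75e-07). It fell at the blastocyst step, at -2.18 in matKO (adjusted p 4.52e-13) and -2.53 in WT (adjusted p 1.39e-13), and again in ExE, at -1.21 in matKO (adjusted p 2.52e-04) and -1.01 in WT (adjusted p 0.00158). Ezh1, the less active catalytic subunit, fell at the blastocyst step, at -2.52 in matKO (adjusted p 2.84e-09) and -2.72 in WT (adjusted p 1.14e-07). From oocyte to 2C embryo the 6 core subunits gave 1 rise and 3 falls in each genotype, and Ezhip itself was called higher in matKO, where it reached at most 19.1 CPM in a 2C embryo, and lower in WT. At the blastocyst step 1 core subunit rose and 3 fell in matKO and 2 rose and 3 fell in WT, and in ExE 1 rose and 3 fell in matKO and 0 rose and 2 fell in WT. The shares of all tested genes called at each step are those given for the members. The medians of the 7 genes at the blastocyst step were -0.61 in matKO and -0.64 in WT, beside -0.29 in matKO and -0.27 in WT over all genes.

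Of 18 tested PRC1 subunits, the complex whose ubiquitin mark Jarid2 and Aebp2 bind, 5 rose and 12 fell in matKO, beside 33.7% and 40.8% of all genes, and 5 rose and 9 fell in WT, beside 29.8% and 37.1%, at the blastocyst step, with medians of -2.31 in matKO and -1.61 in WT. Bmi1, a PCGF subunit, was at -6.96 in matKO (adjusted p 4.41e-21) and -6.23 in WT (adjusted p 2.26e-19), and Rnf2, the ubiquitin ligase, at -2.71 in matKO (adjusted p 1.86e-16) and -2.46 in WT (adjusted p 1.37e-13). From oocyte to 2C embryo 5 of 18 rose and 3 fell in matKO, beside 24.9% and 23.4% of all genes, and 4 rose and 2 fell in WT, beside 23% and 20.8%, led by Pcgf5 at 4.92 in matKO (adjusted p 1.88e-13) and 3.92 in WT (adjusted p 3.47e-10). From blastocyst to ExE 10 of 19 rose and 4 fell in matKO, beside 35.9% and 26.8% of all genes, and 11 rose and 4 fell in WT, beside 34.9% and 29.4%. Between the genotypes 0 PRC1 subunits were called in oocytes, 2C embryos and blastocysts, with 17, 16 and 17 tested. Of all genes 0.0202%, 0.502% and 6.9% were called there, so few or no calls would stand out. In ExE 3 of 19 were lower in matKO, Phc3 (-1.23, adjusted p 0.00743), Pcgf3 (-0.66, adjusted p 0.00759) and Yaf2 (-0.77, adjusted p 0.0462), beside 11.9% of all genes lower. Of the PRC2 core in ExE, Rbbp7, a histone-binding subunit, was higher in matKO (1.00, adjusted p 0.00858) and 0 of 6 tested were lower. Beside them, 1894 of all 12160 genes were higher and 11.9% were lower. Of the 2 H3K27 demethylases, Kdm6a fell at the blastocyst step, at -1.49 in matKO (adjusted p 1.16e-06) and -1.79 in WT (adjusted p 7.15e-07), and no other call was made but that of Kdm6a in ExE over blastocyst. Of 4 genes of the H2A deubiquitinase 2 fell at the blastocyst step in each genotype, beside 40.8% of all genes in matKO and 37.1% in WT, among them Asxl1 at -2.02 in matKO (adjusted p 9.21e-14) and -1.98 in WT (adjusted p 3.71e-11).

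Likeness to each member over the 76 libraries was ranked by Pearson's r on log2(CPM + 1) among 12321 genes. Genes under provisional symbols, such as the Gm and Rik kinds, were left out, and Epop was not ranked for the other members. Among the genes compared, those most like each member differed from member to member. For Phf1 they were Sebox, a homeobox gene of oocytes, at 0.965, Trim61 at 0.962 and Pak7 at 0.962. For Jarid2 they were Ly6f at 0.916, Nanog, the pluripotency factor, at 0.912 and Tmem45b at 0.906, and for Epop Ezr, the membrane linker ezrin, at 0.926, Lad1 at 0.922 and Mir703 at 0.914. Mtf2 was nearest to Ubr3 at 0.918, Fam45a at 0.915 and Itch at 0.905. Aebp2 was nearest to Mtf2 itself at 0.855, then Hipk3 at 0.841 and Baz1a at 0.836. Lcor was nearest to Taok1 at 0.898, Evi5 at 0.896 and Rif1 at 0.892, and Lcorl to Stim2 at 0.791, Dpy19l1 at 0.786 and Tsc22d1 at 0.761. Phf19 had the lowest values, with B4galt5 at 0.719, Aldh7a1 at 0.708 and Mgat1 at 0.707. The libraries share their stage in blocks of 7 to 28, so these values describe likeness across the 4 stages more than within one.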

How the data were processed

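Polyadenylated RNA of single mouse oocytes, embryos or tissue pieces was measured, per the labels. The authors deposited 1 table of raw read counts per stage. Trim Galore, STAR, SAMtools, featureCounts and mm10 are named in the submitters' processing notes. The sources used here give no versions, strand setting or treatment of multi-mapping reads. The tables also hold 8 columns of counts that match no sample, and these were not used.

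Each stage, and each pair of neighbouring stages, was fitted on its own with edgeR 4.0.16 (filterByExpr with a minimum count of 10, TMM, estimateDisp, glmQLFit with the older, robust fit, glmQLFTest) with sex and, for blastocysts, the prefix as terms. Stage fits had a mean for each stage and genotype. P-values were adjusted over all tested genes by Benjamini-Hochberg, with a threshold of 0.05. The older fit was chosen because earlier simulations of these data had given it fewer false calls. The procedure was tested on simulated data with 200 changed genes. DESeq2 1.42.0, other scalings, no filter, a replicate block and fits without a library were alternatives. The labels do not say which libraries share a litter or donor, so p-values measure the spread between libraries, which may be partly technical. Groups hold 3 to 14 libraries, and counting error limits members under a few CPM most.

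The members, gene lists, markers and comparisons were chosen with earlier results of these data known. Named genes are all 8 members, Ezhip, up to 4 called genes of smallest p per list and comparison, and the 3 genes of highest Pearson's r to each member with a mean of at least 5 CPM in a stage. For the last of these, symbols of the Gm, Rik, BC, AC, AL, AW or AU kind were left out. The text gives some of the genes that the rule names in the lists and the others as counts. The ExE pieces high in stroma markers were left out in an alternative added after seeing the data.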

Additional observations from a re-analysis of the deposited data

Results flagged for a closer look

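For 3 members the step from blastocyst to ExE differed between the genotypes by the test of the difference itself: -0.98 for Mtf2, -0.77 for Aebp2 and -0.75 for Jarid2, as log2 changes of matKO minus WT, each from 14 blastocysts of each genotype with 8 matKO and 10 WT ExE pieces. In blastocysts the same genes stood at 0.12, 0.29 and 0.24, and in ExE at -0.83, -0.43 and -0.45, for matKO over WT. All 3 calls were lost under a replicate block (adjusted p 0.168 to 0.233), which joins same-numbered libraries of the stages and has no basis in the labels. That of Mtf2 was also lost without the prefix term (adjusted p 0.101), and that of Jarid2 in 7 alternatives in all, DESeq2 (adjusted p 0.0586) and RLE size factors (adjusted p 0.0622) among them.

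Of the 27 sets of values of groups of 4 to 10 libraries, 3 held a library far from the others, where chance flags about 1 in 20. Jarid2 in matKO oocytes had its lowest value, 101.3 CPM, in oocyte 2, with the next at 111.8 CPM. Lcor in matKO ExE had its highest value, 6.94 CPM, in female 1, with the next at 2.94 CPM, and in WT ExE its highest value, 9.98 CPM, in male 2, with the next at 5.37 CPM. Neither gene was called between the genotypes at that stage.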

How the results depend on the processing

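Of 1015 values of single members under other settings, 971 stayed on their side of the threshold, 925 of them with the same sign and 46, called under neither setting, with the other sign. A further 23 lost a call, 17 gained one and 4 turned. The 4 were all at the step from 2C embryo to blastocyst: library totals gave -0.25 for Mtf2 and -0.026 for Aebp2 in matKO and -0.59 for Aebp2 in WT, and leaving out the prefix term gave 2.04 for Phf19 in WT. Each library was left out in turn for the genotype effects, and each oocyte for the step to the 2C embryo. Of these 776 values 774 stayed on their side of the threshold, 744 with the same sign and 30, called under neither, with the other sign. The other 2, both Lcor in WT, lost their call.

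In the main fits 6.9% of all tested genes were called for the genotype effect in blastocysts and 27.5% in ExE. For the genotype difference they were 4.33% at the blastocyst step and 17.9% at the ExE step. The share moves with the setting, as with library totals in ExE above, so the counts below are no result about the members. Of counts of called members, the genotype effect gave 1 in blastocysts by edgeR without estimateDisp (Phf19) and 1 under D405T alone (Mtf2), against 0, and 4 in ExE with library totals and 1 without the stroma-high pieces (Lcorl), against 2. For the genotype difference at the blastocyst step edgeR without estimateDisp gave 1 (Phf19, -3.13, adjusted p 0.0190), against 0. For that at the ExE step it gave 5, adding Epop and Lcorl, against 3. The replicate block gave 0 there, with Mtf2 at -0.90, Aebp2 at -0.62 and Jarid2 at -0.70. For steps it ended the calls of Phf19 from 2C embryo to blastocyst in matKO (-1.21) and to ExE in WT (1.92) and of Lcorl to ExE in matKO (0.85), and called Mtf2 from 2C embryo to blastocyst in WT (0.93). Same-numbered matKO and WT libraries of a stage deviated together, with a correlation over 0.1, in 3 of 11 pairs of 2C embryos, 1 of 13 of blastocysts, 1 of 8 of ExE pieces and 1 of 3 of oocytes, so the numbers do not pair the genotypes. In the fits of steps the block joined same-numbered libraries of neighbouring stages within a genotype. That pairing was not checked and has no basis in the labels, so calls lost under this block say little about the members.

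The PRC2.2 share without division by length was 36.99% in matKO and 33.6% in WT oocytes, 23.3% and 24.3% in matKO and WT 2C embryos, 58.5% and 50.3% in matKO and WT blastocysts, and 22.1% and 30.7% in matKO and WT ExE. With Mtf2, Phf1 and Phf19 alone as the PRC2.1 side it was 42.3% in WT blastocysts, and 53.1% in matKO and 49.997% in WT ExE. Members under a few CPM, such as Phf1 with 122 counts summed over the 8 matKO ExE pieces and 97 over the 10 WT pieces, are limited by depth. The cause of these shifts was not tested.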

Other observations

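Pieces of WT ExE differed in their Jarid2, Epop and PRC2.2 share. Jarid2 is part of that share, and Epop and Mtf2 are part of the remainder of its total. High Jarid2 and low Epop in pieces picked for a high share are therefore built in and are no separate result. The 2 pieces with the highest PRC2.2 share of the 8 transcripts, male 2 at 26.5% and female 6 at 24.7%, held 289 and 199 CPM of Jarid2 and 176 and 136 CPM of Epop, with summed markers of epiblast and mesoderm of 375 and 141 CPM, of ExE of 1043 and 1068 CPM and of the ectoplacental cone and giant cells of 41.3 and 43.02 CPM. The 2 pieces with the lowest share, female 3 at 4.08% and female 2 at 5.13%, held 73.4 and 49.3 CPM of Jarid2 and 646 and 344 CPM of Epop, with sums of 14.4 and 10.1 CPM, 633 and 371 CPM, and 158 and 169 CPM for the same lists. Male 1, with the highest sum of epiblast and mesoderm markers at 596 CPM, had 109 CPM of Jarid2 and a share of 15.4%. In matKO ExE the marker sum was highest in male 3, at 91.3 CPM, which also had the most Jarid2 of that group, 127 CPM, and a share of 9.59%. Mtf2 stood at 140 and 134 CPM in the pieces of highest share and at 69.6 and 36.8 CPM in those of lowest share, and at 50.9 CPM in male 4, where the epiblast and mesoderm sum was 144 CPM. The pieces were not grouped or tested by these values.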
